A study of Homo sapiens with 47 samples.

Results

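Replication fork and nucleotide supply genes were followed in 47 single HEK293 cells as 10 rows of a table of unique molecular identifier (UMI) counts: PCNA, RPA2, FEN1, RFC2, PRIM1, POLA1, POLD3, RRM1, RRM2 and TYMS. The members were given by name, and all 10 had a row among 18651 gene rows. The HEK293 line derives from human embryonic kidney and was grown here in DMEM with glutamine and fetal calf serum, and the labels name 1 line, 1 run and no treatment. Cells were lysed in a Fluidigm C1 circuit with synthetic ERCC spike-in RNAs at 20000 molecules per cell, and oligo-dT-primed cDNA was tagged and sequenced from the 5′ end of the transcript. Cells are named by their label numbers. They come from 1 culture as far as the labels say and are not replicates of a condition, so every value below is a description of these cells, with no p-value.

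At a replication fork, single-stranded DNA is coated by the RPA complex, DNA polymerase alpha with its primase lays down primers, the clamp loader RFC places the PCNA ring, and DNA polymerase delta extends the lagging strand. FEN1 then removes the displaced flap. Ribonucleotide reductase, made of RRM1 and RRM2, and thymidylate synthase, TYMS, supply deoxynucleotides. Many of these genes are known E2F targets that are transcribed around the G1/S transition, whereas replication-dependent histone mRNAs accumulate during S phase.

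Promoter sequence is shown for PCNA, one of the 2 members whose index of spread lay above that of every spike-in, for RRM2 and FEN1, whose levels had a rho of 0.409 over the cells, and for TYMS, which reached a rho of 0.3 with no other member. RefSeq promoter entries (build GRCh38.p14) matched 8 of the 10 members, all but RPA2 and POLD3. The 160 bases before the annotated start are printed 5′ to 3′ in the direction of transcription, with capitals marking matches on either strand to the E2F letters TTTCCCGC, TTTCGCGC, TTTGCCGC or TTTGGCGC, or to the NF-Y letters CCAAT. The windows are chr20:5126623-5126782 on the minus strand for PCNA, chr2:10122579-10122738 on the plus strand for RRM2, chr11:61792751-61792910 on the plus strand for FEN1 and chr18:657493-657652 on the plus strand for TYMS. For PCNA and RRM2, which have 2 entries each, the first is shown.
PCNA: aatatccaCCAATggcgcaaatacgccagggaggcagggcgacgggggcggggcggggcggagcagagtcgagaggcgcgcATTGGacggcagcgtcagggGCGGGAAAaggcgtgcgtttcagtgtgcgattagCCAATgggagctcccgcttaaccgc
RRM2: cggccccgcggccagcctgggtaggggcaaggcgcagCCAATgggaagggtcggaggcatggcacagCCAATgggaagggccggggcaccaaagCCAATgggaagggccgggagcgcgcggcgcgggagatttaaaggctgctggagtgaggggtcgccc
FEN1: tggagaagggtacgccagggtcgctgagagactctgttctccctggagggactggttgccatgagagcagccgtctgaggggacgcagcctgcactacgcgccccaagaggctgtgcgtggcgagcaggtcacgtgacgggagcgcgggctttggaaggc
TYMS: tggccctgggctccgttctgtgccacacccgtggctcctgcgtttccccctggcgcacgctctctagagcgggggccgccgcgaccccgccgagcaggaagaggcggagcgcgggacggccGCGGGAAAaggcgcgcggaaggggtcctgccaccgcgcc

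In the 250 bases before the start, the E2F letters were found for 3 of 8 members, PCNA, POLA1 and TYMS. They occur in 2.79% of 35116 promoter entries. The PCNA match begins 59 bases and the TYMS match 39 bases before the start, and both are TTTCCCGC on the strand opposite to the printed one. The second PCNA entry has no E2F match. The CCAAT letters were found for 5 of 8 members (PCNA, PRIM1, POLA1, RRM1 and RRM2) and occur in 32% of all entries. The first RRM2 entry has 3 of them, which begin 123, 93 and 66 bases before its start, and the second entry has 1. None of these letters was found in this window for FEN1 or RFC2. A match is a description of the sequence, and the table, whose genome build differs, does not say which start a UMI came from.

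A cell had 29325 to 138647 endogenous UMIs, with a median of 59689, and 2573 to 4717 spike-in UMIs. Spike-in recovery was 12.9% to 23.6% of the molecules added. Of the 6 marker genes listed for HEK293 all had UMIs, 3418 in sum and 12 to 151 per cell. Most were from CKB (1929) and UCHL1 (817), which were counted in all 47 cells. NEFM had 462, NEFL 112, LIN28B 90 and PAX2 only 8, in 5 cells. Of 7 blood and immune markers listed, 3 had a row, with 5 UMIs in sum. Of 6 fibroblast markers, 2 had a row, with 13 UMIs, 12 of them from COL1A1. None of 4 endothelial markers had a row. Cell 52 stood apart, with 12.1% of its endogenous UMIs from the 13 mitochondrially encoded mRNAs against 2.21% to 5.02% in the other cells. Without it the median rho of the members with HIST1H4C, described below, was 0.169 in place of 0.157, and the counts of members and of pairs at 0.3 or more and of members above the highest spike-in were the same.

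The 10 genes together took 0.176% of all endogenous UMIs (95% exact binomial interval 0.171% to 0.181%, which here and below covers counting error only). Their sum was lowest in cell 10, at 8.30 UMIs per 10000 endogenous UMIs, had a median of 16.2 and was highest in cell 3, at 28.9. The next highest was cell 56, with 26.4. Dividing by the spike-in recovery of each cell gave 606 ± 242 estimated mRNA molecules per cell for the 10 genes (SD, n = 47). This takes endogenous mRNA to be counted as efficiently as the spike-ins. Since 1 tag is read per 5′ end, levels of different genes are set side by side without correction for length.

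RPA2, the middle subunit of the RPA complex, was the most abundant member. It had 8 UMIs in cell 8, a median of 38 and 95 in cell 62, with a mean of 41.3 ± 21.1 UMIs per cell (SD, n = 47) or an estimated 228 ± 101 molecules. Scaled to depth, RPA2 ranged from 2.24 to 10.5 UMIs per 10000. It was present in every cell, and its share was highest in cells 56 and 40.

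PCNA, the sliding clamp that tethers polymerases to DNA, had 2 UMIs in cell 23, a median of 12 and 41 in cells 33 and 62, a mean of 15.1 ± 10.2. Scaled to depth, cell 55 was lowest with 0.663 UMIs per 10000 and cell 28 highest with 5.95, and the median was 2.16. PCNA was therefore detected in all cells, with the share of the highest cell several times that of the lowest. RFC2, a subunit of the clamp loader, had 0 to 20 UMIs with a median of 4 and was highest in cell 56. It was not counted in 4 cells, where counting error alone at its mean share would leave 0.811 cells at 0.

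FEN1, the flap endonuclease of Okazaki fragment maturation, had 0 to 17 UMIs with a median of 3, and its highest count was in cell 62. It was at 0 in 7 cells (1.96 from counting error alone). The primase subunit gene PRIM1 had 0 to 24 UMIs with a median of 5, and was at 0 in 3 cells (0.449 from counting error alone). The catalytic subunit gene of polymerase alpha, POLA1, was the rarest member, with 129 UMIs in all, 0 to 12 per cell and a median of 2. It was at 0 in 8 cells (4.42 from counting error alone). POLD3, an accessory subunit of polymerase delta, had 137 UMIs in all, 0 to 10 per cell and a median of 2, with 5 cells at 0 (3.89 from counting error alone). With such counts a single cell cannot be called positive or negative for these subunits.

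Of the nucleotide supply genes, RRM1, the large subunit of ribonucleotide reductase, had 2 UMIs in cell 14, a median of 14 and 40 in cell 62, a mean of 13.9 ± 7.75. RRM2, its small subunit, had 0 UMIs in cell 17, a median of 9 and 39 in cell 62, a mean of 10.1 ± 6.89. TYMS, which makes dTMP from dUMP, had 1 UMI in cell 52, a median of 8 and 18 in cells 2 and 45, a mean of 8.21 ± 4.57. In estimated molecules per cell the means were 77.1 ± 39.1 for RRM1, 55.9 ± 34.9 for RRM2 and 46.1 ± 23.98 for TYMS (SD, n = 47). The order of mean level over all 10 members was RPA2, PCNA, RRM1, RRM2, TYMS, PRIM1, RFC2, FEN1, POLD3 and POLA1. Each gap between neighbours from PCNA to POLA1 was smaller than the SD over cells of either neighbour, and the gap between RPA2 and PCNA, 41.3 against 15.1 UMIs, was larger.

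Cell 62 held the highest count of RPA2, FEN1, RRM1 and RRM2 and shared that of PCNA and POLD3. It also had 115303 endogenous UMIs. By share it was highest for none of the 10 members and second for FEN1. More cells were at 0 than counting error alone gives for 6 members, against 86.7% of the 9088 genes whose UMIs summed to 20 or more.

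**Figure D1:**
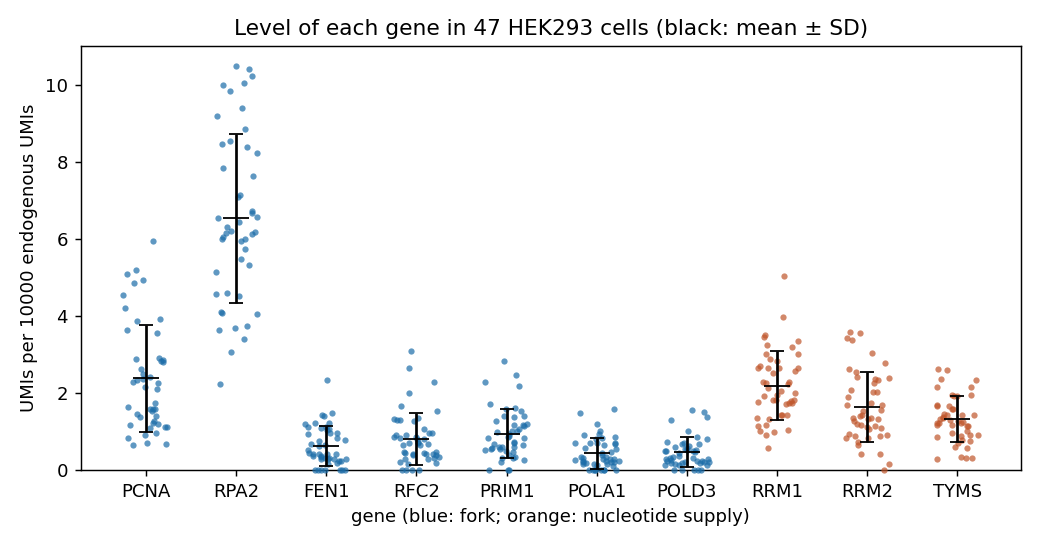
Level of each of the 10 genes in UMIs per 10000 endogenous UMIs (y axis). Each point is 1 of 47 cells, the black line is the mean and the bar the SD, with fork genes in blue and nucleotide supply genes in orange. RPA2 spans 2.24 to 10.5 and POLA1, the rarest, reaches 1.59.

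Several gene models overlap or adjoin the members in GENCODE v29, and the use of strand in counting was not given in the sources used here. FEN1 overlaps TMEM258 on the opposite strand, a gene with 2721 UMIs against 182 for FEN1, so the FEN1 counts are uncertain. PRIM1 overlaps the annotated span of NACA (6019 UMIs) on the same strand, and TYMS overlaps ENOSF1 (46 UMIs) on the opposite strand. Processed pseudogenes are annotated for PCNA, RPA2, FEN1, RRM2 and TYMS, and reads shared with them could have been split or lost.

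PCNA and RPA2 had a higher index of spread between cells than any spike-in. The spread is given as an index of dispersion: a gene's counts are compared by chi-square with those that an equal share in every cell would give, and the sum is divided by the degrees of freedom, so that counting error alone gives 1. At the same relative spread it is higher for a gene with more UMIs, and RPA2 and PCNA had the most among the members. It therefore does not rank the members by relative spread. RPA2 had 6.54 ± 2.18 UMIs per 10000 and PCNA 2.39 ± 1.39 (SD, n = 47), so RPA2 spread less relative to its mean. The spike-in with the highest index averaged 2.45 UMIs per cell. The index was 4.42 for PCNA and 4.25 for RPA2, against at most 3.97 and a median of 2.11 for 52 spike-ins set against the spike-in totals. These were the 2 of 10 members above the highest spike-in, and 3.21% of the 9088 genes were above it. Among genes with at least 100 UMIs, as all members have, 5.59% were above it. RRM2 followed with 3.00, RFC2 with 2.86, PRIM1 with 2.50, FEN1 with 2.49, POLA1 with 2.03, RRM1 with 1.93, POLD3 with 1.90 and TYMS with 1.65.

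These lower indices of the remaining 8 members, 1.65 to 3.00, lay within the range of the spike-ins, 0.757 to 3.97. The median index was 2.50 for the 10 members and 2.00 for all genes tested. Without the cell of its highest share the index was 4.13 for PCNA and 4.07 for RPA2. The RPA2 value fell short of the highest spike-in when cell 40 was left out (4.01 against 4.07) or cell 56 (4.07 against 4.08). In the 17 cells with label numbers above 48 neither gene exceeded the highest spike-in, with 3.80 for PCNA and 3.61 for RPA2 against 5.13. After thinning each cell to 29325 UMIs neither did (2.48 and 2.25 against 3.31).

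**Figure D2:**
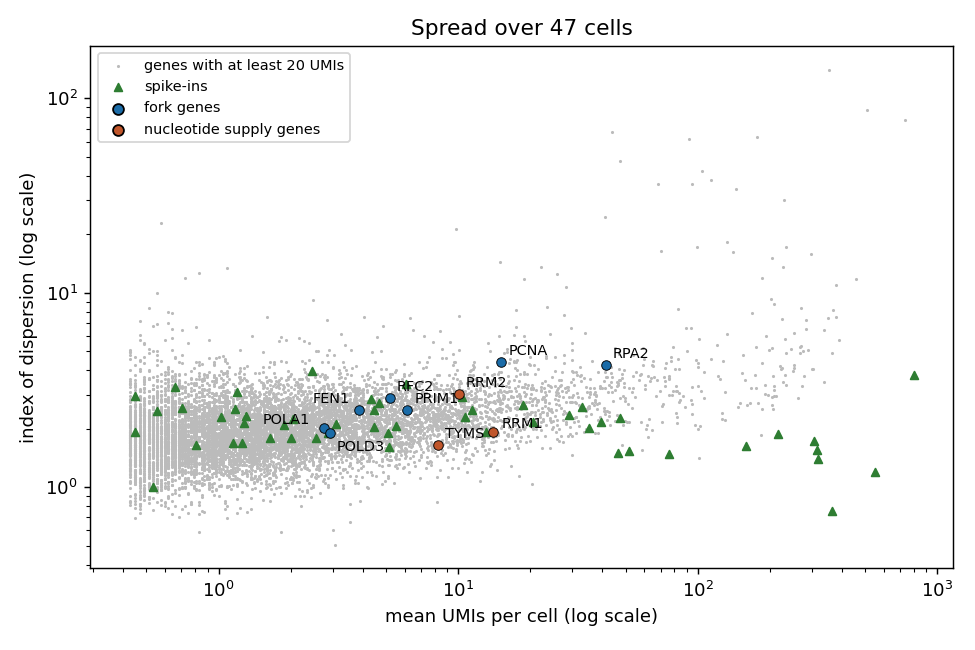
Index of dispersion (y axis, log scale) against mean UMIs per cell (x axis, log scale) for genes with at least 20 UMIs in grey, spike-ins as green triangles and the 10 members as outlined circles. PCNA at 4.42 and RPA2 at 4.25 lie above the highest spike-in at 3.97, and the other members lie among the spike-ins.

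Most pairs of members had a positive rho. Over 47 cells, Spearman's rho between depth-scaled levels was above 0 for 41 of 45 pairs, with a median of 0.181, against a median of 0.0180 over all pairs of the 9088 genes. A rho of at least 0.3 was reached by 9 of the 45 pairs, or 20.0%, against 3.02% of all pairs. Cells of 1 run share library preparation and the totals used for scaling, and most members have few UMIs per cell, so weak values are no finding.

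RPA2 and RFC2 had the highest rho, 0.530. RPA2 and RRM2 had 0.491, POLA1 and RRM1 0.438, RFC2 and PRIM1 0.414, and FEN1 and RRM2 0.409. The other pairs at 0.3 or more were PCNA and RRM2 (0.376), FEN1 and RRM1 (0.346), POLD3 and RRM2 (0.333) and PCNA and RPA2 (0.324). RRM2 thus took part in 4 of the 9 pairs, RPA2 in 3 and TYMS in none. The 2 subunits of ribonucleotide reductase had a rho of 0.0693 with each other, and RRM2 and TYMS one of 0.0126. RPA2 and POLA1 had the lowest rho, -0.181.

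Across the fork and nucleotide groups, 6 of 21 pairs reached 0.3 with a median rho of 0.225, against 3 of 21 pairs and a median of 0.181 among fork genes and 0 of 3 pairs among nucleotide genes. The mean of the 7 fork genes and the mean of the 3 nucleotide genes, each taken over z-scores of log-transformed, depth-scaled UMIs with a pseudocount of 1, had a rho of 0.685. Each member had a rho of 0.244 (PRIM1) to 0.429 (RRM2) with the mean of the other 9.

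The cells were cut at label number 48 into 30 up to 48 and 17 above 48. This cut was a setting chosen here, and the labels mark no such sets. The labels do not say what the numbers stand for, and endogenous totals overlapped, with medians of 57895 UMIs up to 48 and 63178 above. All 9 pairs at 0.3 or more kept a rho above 0 in both sets, and 6 of them stayed at 0.3 or more in the cells up to 48. The 9 pairs were picked by their rho over these same cells, so these values are no separate support for them. The share of all gene pairs at 0.3 or more within each set is not given. FEN1 and RRM2 differed most, with 0.838 in the cells above 48 and 0.0573 in those up to 48, a difference that was not tested. RPA2 and RFC2 had 0.542 above 48 and 0.506 up to 48. After thinning, 4 of the 9 pairs stayed at 0.3 or more, with RPA2 and RFC2 at 0.561 and PCNA and RRM2 at 0.238. Leaving out 1 cell at a time gave 8 to 12 of 45 pairs at 0.3 or more. The rho of PCNA and RPA2 was 0.284 without cell 8, and that of POLD3 and RRM2 was 0.299 without cell 18.

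**Figure D3:**
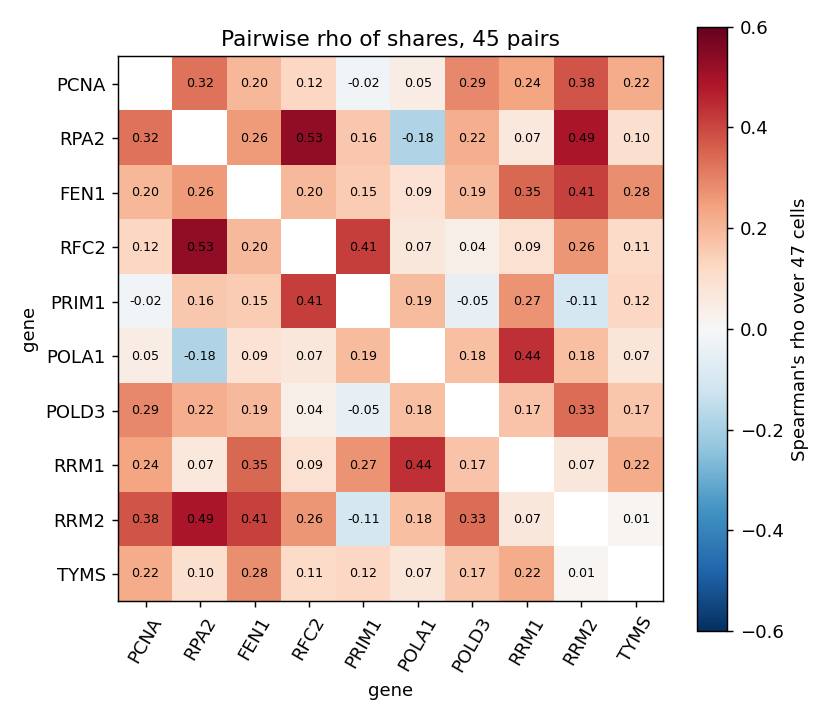
Spearman's rho over 47 cells for each of the 45 pairs of members, printed in each square and shown by colour from blue (negative) to red (positive). The darkest squares are RPA2 with RFC2 (0.53) and RPA2 with RRM2 (0.49), and the highest value of TYMS is 0.28, with FEN1.

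The relation to HIST1H4C, a replication-dependent histone H4 gene, was weak for every member. HIST1H4C took 0.568% of endogenous UMIs, with 0.0905% in cell 57, 1.63% in cell 8 and a median of 0.577%. Histone H4 genes have near-identical copies among which reads could have been divided, so this share is uncertain. Because cDNA was oligo-dT-primed, it covers only the histone mRNA molecules that such priming captured. How many others a cell held was not measured, here or for the other histone genes below, and the share is no direct measure of S phase. Its share had a rho of -0.00347 with the endogenous total. Spearman's rho with the HIST1H4C share was positive for all 10 members, from 0.0984 to 0.269, with a median of 0.157, against a median of -0.0311 over the other 9087 genes, of which 42.4% were above 0. None of the members reached 0.3 (0 of 10), which 1.63% of genes did. At a rho of 0.4 the count was also 0, and Pearson's r of log2(1 + scaled UMIs) gave 1, RRM1 at 0.302.

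RRM1 had the highest value (rho = 0.269, Pearson's r = 0.362), and r was 0.280 without cells 8 and 15, whose HIST1H4C shares were farthest from the median. RRM1 was itself highest in cell 8, at 5.05 UMIs per 10000. Its rho was 0.310 to 0.334 without cell 7, 15, 22 or 23. POLD3 had rho = 0.233 and r = 0.0653, RRM2 rho = 0.213 and r = 0.202, and PCNA rho = 0.193 and r = 0.0864. Without cells 8 and 15 their r was 0.135, 0.320 and 0.213.

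RPA2 had rho = 0.169 and r = 0.0932, with r = 0.264 without cells 8 and 15; its level was at its lowest in cell 8, where the HIST1H4C share was at its highest. POLA1 had rho = 0.145 and r = 0.119, FEN1 rho = 0.144 and r = 0.144, and TYMS rho = 0.125 and r = 0.161. For these 3 genes r was 0.0893, 0.134 and 0.123 without both cells. PRIM1 had rho = 0.118 and r = 0.173 (0.133 without both cells), and RFC2 rho = 0.0984 and r = 0.0787 (0.172 without both cells). PCNA illustrates the scatter: its highest share was in cell 28, with 0.587% HIST1H4C, and cell 20, with 0.0964% HIST1H4C, had 23 PCNA UMIs, well above the median of 12.

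The mean of the 10 members had a rho of 0.325 with the HIST1H4C share, and their summed share had rho = 0.319 and r = 0.262, or r = 0.379 without cells 8 and 15. A mean over 10 genes averages out counting error, so it is not set against the values of single genes. The nucleotide supply sum had rho = 0.377 (r = 0.378) and the fork sum rho = 0.248 (r = 0.174). The 5 cells with the highest member mean, 73, 3, 56, 62 and 86, had HIST1H4C shares of 1.04%, 0.446%, 0.830%, 0.658% and 0.190%. The lowest member means were those of cells 10, 44 and 55, with 0.311%, 0.0992% and 0.189%, while cell 48 with 0.864% ranked 44 of 47.

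The values were unlike in the label sets. In the 17 cells above 48 the median rho of the members was 0.366 and 6 of 10 reached 0.3, led by RRM2 (0.615), RPA2 (0.591) and FEN1 (0.473). In this set, with fewer cells, 10.8% of all genes reached 0.3. In the 30 cells up to 48 the median was 0.0399 and 0 of 10 reached 0.3, beside 3.76% of all genes, with RRM2 at 0.0785, RPA2 at 0.0238 and FEN1 at 0.0270. The rho of the member mean was 0.694 above 48 and 0.202 up to 48. This difference between sets was not tested, and HIST1H4C shares spanned 0.0905% to 1.07% above 48 and 0.0907% to 1.63% up to 48. When UMIs were scaled to spike-ins instead of the endogenous total, 5 of 10 members reached 0.3 (RRM1 at 0.486, RPA2 at 0.403), beside 10.4% of all genes, whose median also moved to 0.0913.

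**Figure D4:**
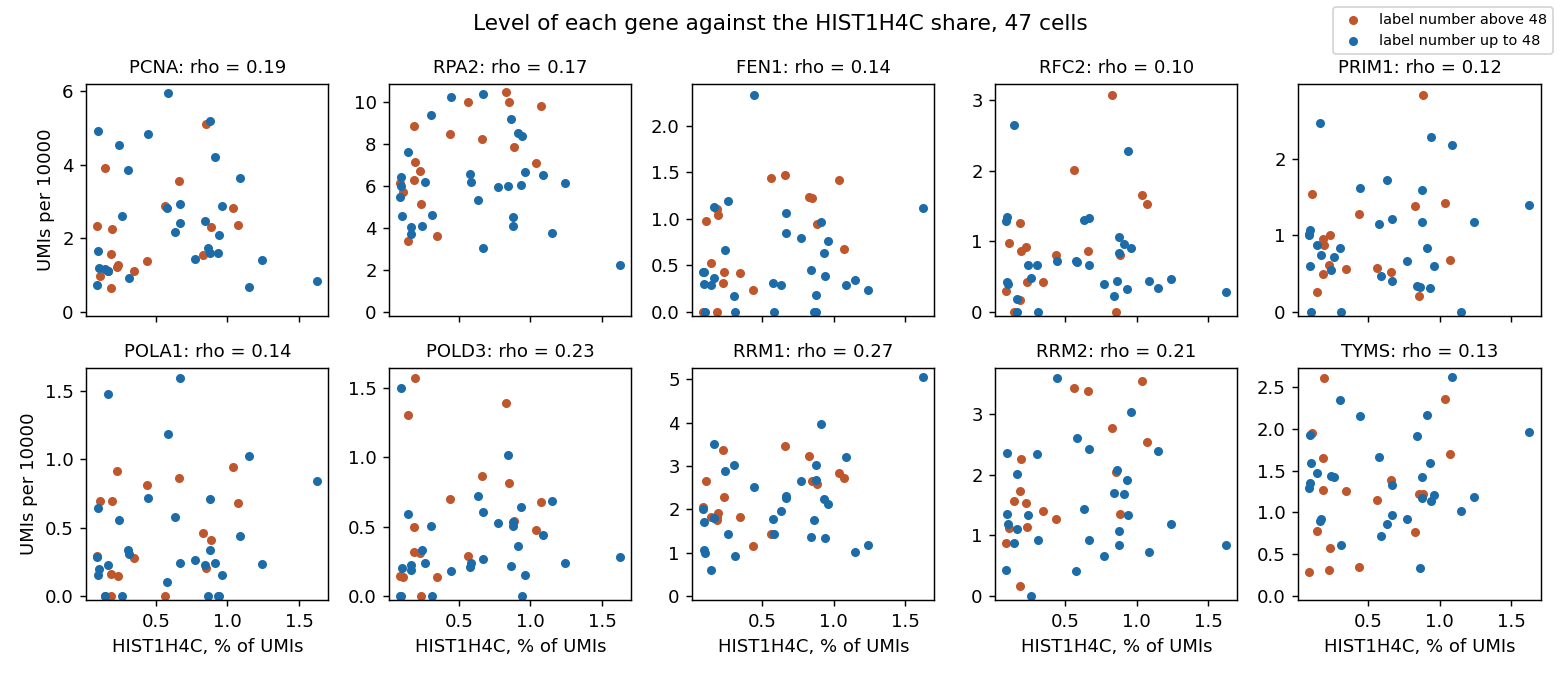
Level of each member in UMIs per 10000 (y axes) against the HIST1H4C share of endogenous UMIs in percent (x axes), with 1 point per cell, orange for label numbers above 48 and blue for those up to 48. All 10 panels have a positive rho, none above 0.27, and high levels of the members occur at low and at high HIST1H4C shares.

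Of 31 other fork genes listed, 29 had at least 20 UMIs. A rho of 0.3 with HIST1H4C was reached by 3 of them, beside 1.63% of all genes, and one of -0.3 by 0, beside 3.87% of all genes. KIAA0101, the PCNA-associated factor, had 17.3 ± 11.4 UMIs per cell (SD, n = 47) and rho = 0.502, RFC5, another clamp loader subunit, rho = 0.349, and POLD1, the catalytic subunit of polymerase delta, rho = 0.302 at 57 UMIs in all. KIAA0101 had 0.623 in the cells above 48 and 0.459 in those up to 48, and 0.415 after thinning. RFC5 had 0.658 above 48 and 0.210 up to 48, and POLD1 0.182 above 48 and 0.384 up to 48. After thinning RFC5 had 0.253 and POLD1 0.251, so neither held 0.3 in both sets or after thinning. The list medians were 0.0110 for 8 other polymerase subunits, 0.121 for 10 clamp, clamp loader and RPA genes, and -0.00197 for 11 genes of ligation, flap processing and fork protection. The most abundant gene of each, POLE3, RPA3 and SSBP1, had rho = -0.174, -0.0125 and -0.0525.

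Among 29 tested genes of nucleotide supply outside the members, 3 reached 0.3 and 3 reached -0.3, with a median of 0.0807. Of all genes, 1.63% reached 0.3 and 3.87% reached -0.3. DUT, which hydrolyses dUTP to dUMP, had 24.2 ± 15.4 UMIs per cell and rho = 0.548. TK1, the thymidine salvage kinase, had rho = 0.339. DUT had 0.441 in the cells above 48 and 0.568 in those up to 48, and TK1 0.350 and 0.289. After thinning, the rho was 0.352 for DUT and 0.314 for TK1. The 3 genes at -0.3 or less were CAD, PFAS and CMPK1. CAD, of the first steps of pyrimidine synthesis, had rho = -0.418, PFAS, of purine synthesis, -0.383, and CMPK1, the UMP and CMP kinase, -0.303. With spike-in scaling, which moved the median of all genes from -0.0311 to 0.0913, CAD had -0.274, PFAS -0.210 and CMPK1 -0.0124. After thinning CAD had -0.315, PFAS -0.465 and CMPK1 -0.267. In the cells above 48 they had -0.501, -0.522 and -0.629, and in those up to 48 -0.378, -0.299 and -0.186. The most abundant gene of the list, PAICS, had -0.0519.

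Of 17 helicase and origin licensing genes, 3 reached 0.3, beside 1.63% of all genes: CDC45, the helicase partner (0.463), MCM6 (0.370) and MCM5 (0.319). MCM7 had 0.298 and MCM2 -0.00821. The list median was 0.0367, and the most abundant gene, GMNN, had -0.0404. None of 8 tested G1/S regulators (median 0.131, CDK4 at 0.235) or of 9 chromatin assembly genes (median -0.00486, NASP at -0.173) reached 0.3 in either direction. Replication-dependent histones other than HIST1H4C stood at the other end, with 9 of 13 at 0.3 or more, a median of 0.474, and HIST1H1E at 0.775, HIST1H1D at 0.721, HIST1H2AM at 0.640, HIST1H3B at 0.626, HIST1H4E at 0.548, HIST1H1C at 0.531, HIST1H2AC at 0.474, HIST1H3A at 0.387 and HIST1H2BK at 0.301. Beside 3.87% of all genes, 8 of 39 G2/M genes reached -0.3 and 0 reached 0.3, with a median of -0.116. They were HMMR (-0.551), CCNB1 (-0.455), CDC20 (-0.384), BUB1 (-0.383), CENPE (-0.379), CCNB2 (-0.360), KIF20B (-0.353) and PTTG1 (-0.347), and the most abundant, CKS2, had -0.257. With spike-in scaling HMMR had -0.446, whereas the other 7 lay between -0.232 (BUB1) and -0.00162 (PTTG1), short of -0.3. After thinning CCNB2 had -0.161 and KIF20B -0.298, and the rest of the 8 lay between -0.464 (CCNB1) and -0.303 (PTTG1).

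**Figure D5:**
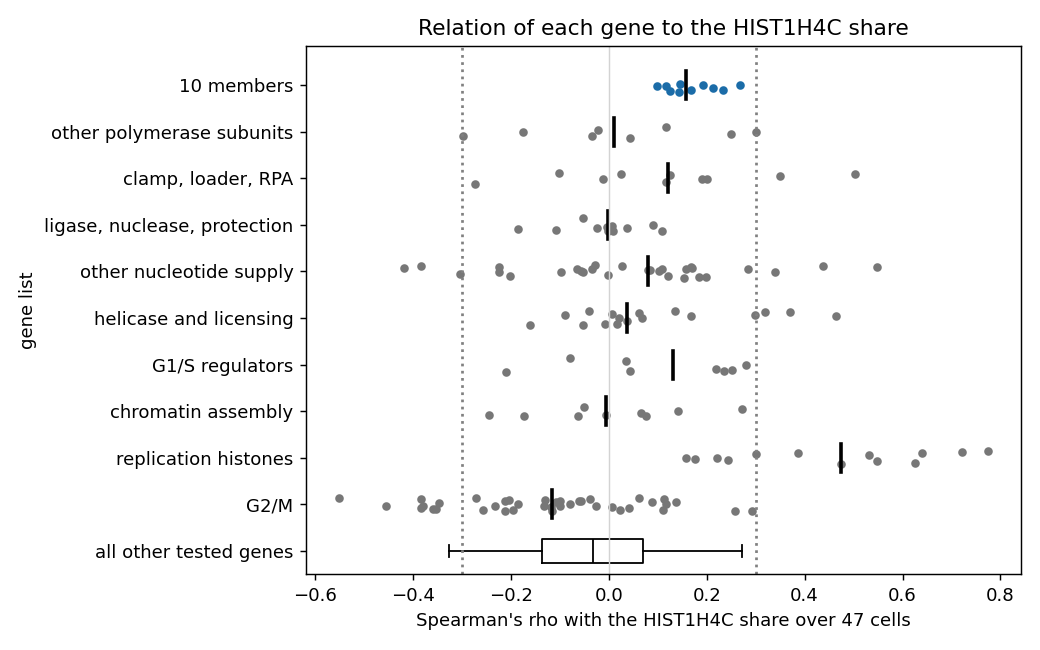
Spearman's rho of each gene with the HIST1H4C share over 47 cells (x axis) by gene list, with 1 point per gene and a black line at the list median. The box shows the median and quartiles of all other tested genes, with whiskers around the central 95% of genes, and dotted lines mark -0.3 and 0.3. The 10 members lie between 0.0984 and 0.269, replication histones reach 0.775 and G2/M genes extend to -0.551.

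The genes that varied most like the members were sought among 6141 other genes with at least 47 UMIs, by rho with the member mean over 47 cells. The 10 highest were RIF1 (0.577), a factor of replication timing and DNA repair, FTSJ2 (0.558), the helicase subunit gene MCM2 (0.551), the tetraspanin gene CD81 (0.515), the histone chaperone gene ASF1B (0.510), C17orf62 (0.508), the phosphatase gene DUSP1 (0.506), the transcription factor gene ELF2 (0.505), ERAL1 (0.498) and MCM6 (0.490). RIF1, MCM2 and ASF1B had a rho with the HIST1H4C share of -0.0206, -0.00821 and 0.0656. For MCM6 it was 0.370, for FTSJ2 0.324, for DUSP1 0.293 and for ERAL1 0.230. ELF2 had 0.147, CD81 0.145 and C17orf62 0.000485 with that share. RIF1 had 0.678 with the member mean above 48 and 0.411 up to 48, and MCM2 0.446 and 0.573. The genes named here were picked by their values over the same cells, so such split values are no separate support. After thinning RIF1 had 0.368, FTSJ2 0.323 and MCM2 0.390 with the member mean, whereas CD81 had 0.569 and DUSP1 0.499. The rest of the 10 lay between 0.228 (MCM6) and 0.431 (ASF1B). The lowest were CDC20 (-0.540), which activates the anaphase-promoting complex, MRPL10 (-0.498), CPNE1 (-0.487) and RPS9 (-0.476). CDC20 had -0.654 above 48, -0.490 up to 48 and -0.587 after thinning, and CPNE1 -0.620, -0.480 and -0.309. MRPL10 had -0.789 above 48, but -0.232 up to 48 and -0.260 after thinning. RPS9 had -0.584 up to 48, but -0.179 above 48 and -0.221 after thinning.

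By list, 7 of 17 helicase and licensing genes had a rho of at least 0.3 with the member mean, which 4.45% of the 9088 genes did, with a median of 0.274 against 0.0372 over all genes tested. Chromatin assembly genes had 4 of 9 (median 0.144), and other nucleotide genes had 4 of 29 (median 0.0723). The clamp, loader and RPA list had 3 of 10 (median 0.144), with KIAA0101 at 0.450 and RFC4 at 0.439, and 1 at -0.3 or less, CHTF18 (-0.319). The other polymerase subunits had 2 of 8 (median 0.0542), ligation, processing and protection genes 2 of 11 (median 0.157), and G1/S regulators 1 of 8 (median 0.177). Among G2/M genes 3 of 39 reached -0.3 (CDC20, CCNB1 and AURKA), as did 1.36% of all genes, and 2 reached 0.3 (KIF11 and NUSAP1), with a median of -0.142. For replication histones, HIST1H4C included, it was 5 of 14 (median 0.224). Within the licensing list, MCM2 had 0.551 with the member mean and -0.00821 with HIST1H4C, whereas CDC45 (0.391 and 0.463), MCM6 (0.490 and 0.370) and MCM5 (0.426 and 0.319) had at least 0.3 with both. After thinning the values of CDC45 were 0.0885 and 0.195, those of MCM6 0.228 and 0.271 and those of MCM5 0.305 and 0.259, and KIAA0101 had 0.148 with the member mean.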

How the data were processed

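UMI counts per gene and cell were used as deposited, not normalized by the authors. The submitters' processing notes name cutadapt 1.2.1, STAR 2.4.0a, hg19 and GRCh37; annotation, UMI collapsing and strand use are not given in the sources used here. A repeated header line, 0.0602% of the summed values, was dropped because it is no gene, 78 spike-in rows were kept out of totals, and 0 columns belonged to other samples. Members and lists were chosen with earlier results of these data known. Named genes were the members, list genes with rho of at least 0.3 or at most -0.3 with the HIST1H4C share, the most abundant gene of each list, and the 10 most and 5 least like the member mean. MCM7, RFC4, CHTF18, AURKA, KIF11, NUSAP1 and PCMT1 were named after their values were seen. Some genes that the rule names are not reported here. Shares, indices, Spearman's rho and Pearson's r were computed with Python 3.11.15, numpy 2.4.6 and scipy 1.17.1, for genes with at least 20 UMIs, after a check on simulated data. Alternatives were TMM scaling (edgeR 4.0.16), DESeq2 1.42.0 size factors, spike-in scaling, thinning with 1 seeded draw, other minimums of 5 and 100 UMIs, and subsets of cells; these tools gave scaling factors only, and no test between groups was possible with 1 group. Taking out the endogenous total from the ranks was an alternative chosen after seeing the data. Doublets were not called. A count of 0 in all cells allows a share of up to 0.000103% (3 counts).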

Additional observations from a re-analysis of the deposited data

How the results depend on the processing

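A rho was taken as moved when it changed by at least 0.1 and a count or index by over 1.5 times. The median rho of the members with the HIST1H4C share was 0.157, and was 0.316 with spike-in scaling, 0.0399 in cells up to 48 and 0.366 in cells above 48. It was 0.135 to 0.185 with 1 cell left out. The count of members at 0.3 or more was 0, and was 1 with TMM scaling, 1 without cells 8 and 15, 1 with Pearson's r, 5 with spike-in scaling, 6 in cells above 48 and 0 to 1 with 1 cell left out. The rho of the member mean was 0.325, and was 0.491, 0.202 and 0.694 with spike-in scaling, in cells up to 48 and in cells above 48 (0.286 to 0.390 with 1 cell left out). The median of the 45 pairs was 0.181, 0.363 with spike-in scaling and 0.154 to 0.207 with 1 cell left out. The 2 members above the highest spike-in became 0 after thinning and 0 in cells above 48, and 1 to 2 with 1 cell left out. Fewer UMIs or cells enter by construction in the thinned and split values. With spike-in scaling, the endogenous UMIs per spike-in UMI of a cell enter the level of every gene by construction. Otherwise the cause was not tested. The median rho of all tested genes with the HIST1H4C share also moved with spike-in scaling, from -0.0311 to 0.0913. No value over all gene pairs is given beside 0.363. Of the other values of these 5 results, 46 stayed within the limits. No paired analysis was possible because there is 1 group of cells. Counts of 2 to 6 UMIs per cell limit what can be said of FEN1, RFC2, PRIM1, POLA1 and POLD3.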

Other observations

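Among genes with at least 47 UMIs, those with the highest rho with the HIST1H4C share were HIST1H1E (0.775), HIST1H1D (0.721), HIST1H2AM (0.640), HIST1H3B (0.626) and PCMT1 (0.604), a protein repair methyltransferase gene. Their rho with the member mean was 0.347, 0.299, 0.304, 0.397 and 0.214. Endogenous UMIs per spike-in UMI, an estimate of mRNA content, had a rho of 0.356 with the share of RFC2, 0.302 with that of PRIM1 and -0.129 with that of RRM2 over the 47 cells. The other members lay between -0.0698 (POLD3) and 0.197 (RRM1). The same rho over all genes is not given, so these values cannot be called particular to the members. For the endogenous total, another measure, 1186 of 9088 genes and 0 of 10 members had a rho of at least 0.3.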
